A study of Mus musculus with 16 samples.

Results

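Perineuronal net genes were followed across the prefrontal cortex of 4 mouse genotypes that differ in β-catenin (β-cat). The 9 genes are Acan, Bcan, Ncan, Vcan, Hapln1, Hapln4, Tnr, Tnc and Has3. They were chosen by name, and all 9 were found among the 23284 genes of the expression table. Perineuronal nets are lattices of extracellular matrix around the cell bodies and proximal dendrites of certain neurons, most often parvalbumin interneurons in cortex. In the net, long chains of hyaluronan carry chondroitin sulfate proteoglycans of the lectican family, link proteins fasten the lecticans to the chains, and tenascin-R crosslinks the lecticans. Nets form as critical periods close and are known for limiting plasticity and for holding cations and other factors near fast-spiking cells. The study changed β-cat in excitatory neurons, and the nets mostly enclose other cells, so the comparisons ask whether matrix RNA in the whole tissue differed with β-cat in those neurons.

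RNA was sequenced from 16 libraries, 4 of each genotype, from mice of 2 to 3 months. The groups are APC cKO, Bcat cOE, APC/Bcat cKO and control. APC cKOs carry floxed Apc on both alleles and lose APC, the scaffold of the complex that degrades β-cat. In Bcat cOEs 1 Ctnnb1 allele has a floxed exon 3, and its removal leaves a β-cat protein that escapes degradation. APC/Bcat cKOs carry floxed Apc and floxed Ctnnb1 on both alleles. All mutant groups carry a CaMKIIα-Cre transgene, active in forebrain excitatory neurons after birth, while controls are Cre-negative littermates pooled from the lines, so Cre itself cannot be told apart from the floxed alleles against controls. The pieces are whole tissue, and fewer cells of a type and less RNA per cell cannot be told apart in them. Each library is taken as 1 mouse, as the labels number them.

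Apc was lower in all 8 libraries with floxed Apc and Cre than in any other library. It was at 43.9 ± 4.21 FPKM (SD, n = 4; FPKM is the number of fragments scaled to transcript length and library size) in controls, 44.5 ± 5.11 in Bcat cOEs, 11.7 ± 3.88 in APC cKOs and 10.0 ± 2.30 in APC/Bcat cKOs. With limma, the adjusted p of the difference from controls was 2.40e-04 for APC cKOs and 3.35e-05 for APC/Bcat cKOs. The gene-level value of Ctnnb1 passed in no mutant group (log2 difference -0.049 in APC/Bcat cKOs, adjusted p = 0.643). The table holds no fragment counts, so depth is unknown. Between 5726 and 6649 genes were at 0 in a library, with the most in APC/Bcat cKO replicate 4. By Xist and Y-linked genes, control replicate 1 and APC cKO replicate 1 were female and the other 14 libraries male. The summed level of 7 markers of striatal projection neurons ranged from 111 to 604 FPKM over the libraries and overlapped between all groups. Against controls, 7, 5 and 7 of the 7 had a log2 difference above 0 in APC cKOs, Bcat cOEs and APC/Bcat cKOs. The medians were 0.66, 0.099 and 0.18, with 0 markers at an unadjusted limma p under 0.05. The part of such tissue in the net gene values was not tested.

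The net genes spanned 2 orders of level, and the order was nearly the same in every library. Bcan, the brain-specific lectican brevican, was highest at a mean of 55.5 FPKM over the 16 libraries. Ncan, the lectican neurocan, followed at 31.8, then Hapln4, a link protein made by neurons, at 30.5. Tnr, the crosslinker tenascin-R, was at 15.2 FPKM. Hapln1, the cartilage-type link protein, was at 6.38 and Vcan, the lectican versican, at 2.67. The lowest were Tnc, the developmental tenascin-C, at 0.756, Has3, a hyaluronan synthase, at 0.519 and Acan, the lectican aggrecan that is the usual marker protein of nets, at 0.487. FPKM values are per length, so these levels can be compared between genes. In 16 of 16 libraries Bcan exceeded Ncan, Hapln4 exceeded Tnr, Tnr exceeded Hapln1, Hapln1 exceeded Vcan and Vcan exceeded Tnc. The other neighbours in the order were not separated, with Ncan above Hapln4 in 10 of 16 libraries, Tnc above Has3 in 12 and Has3 above Acan in 9. Among genes tested, Bcan was above 88.0% and Tnc above 4.51%. Acan fell just below the minimum mean of 0.5 FPKM used for the test and Has3 just above it. Values for Acan therefore come from a fit without that minimum and have no adjusted p.

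**Figure D1:**
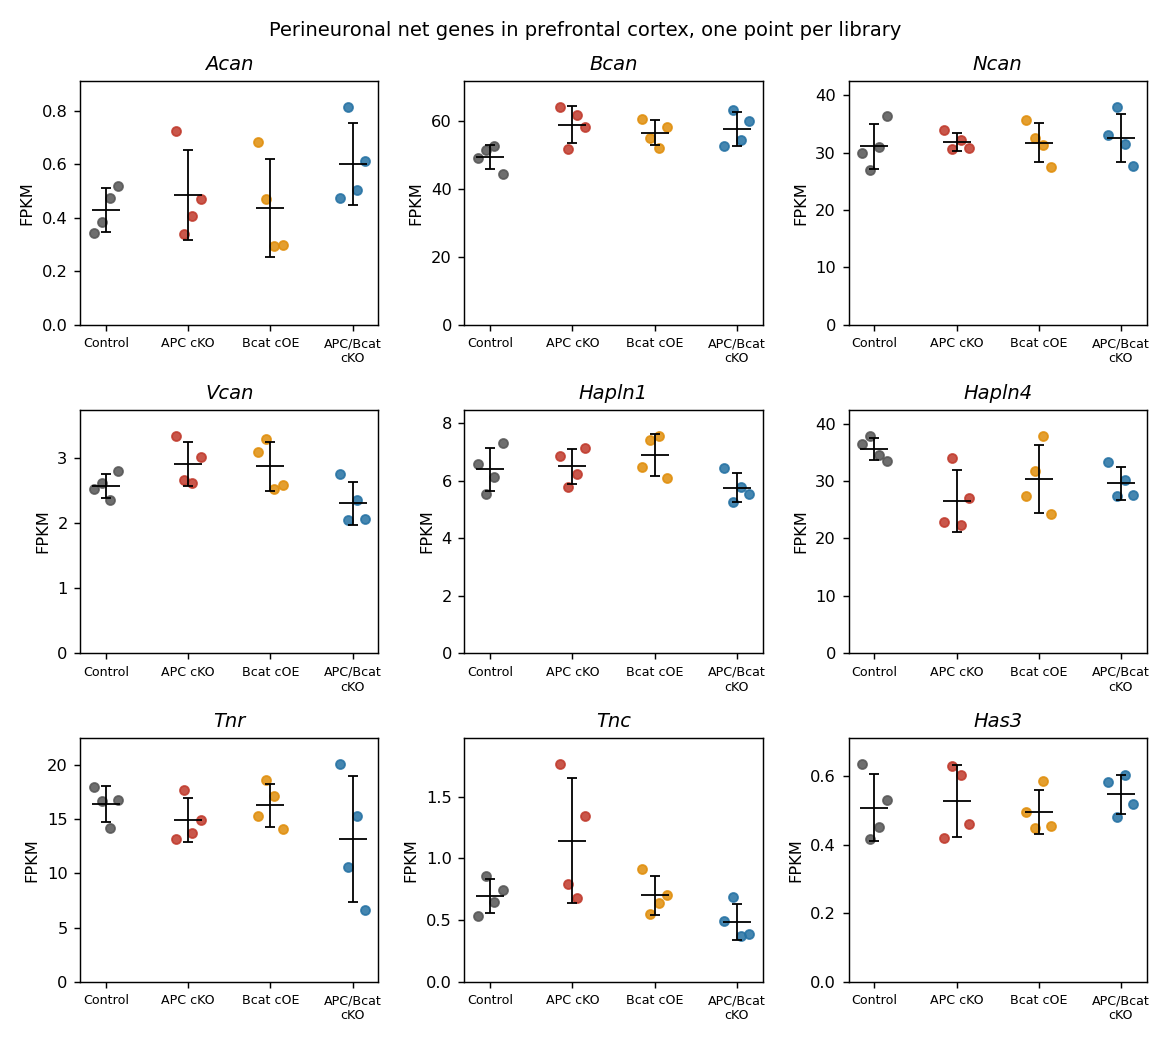
Level of each perineuronal net gene in FPKM (y axis, from 0, a separate scale for each gene) in the 4 genotypes (x axis). Points are single libraries, 4 per genotype, and the black marks are the mean ± SD. The groups overlap for every gene against controls except Bcan and Hapln4 in APC/Bcat cKOs, and Tnr has its widest spread, from 6.64 to 20.1 FPKM, in that genotype.

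No net gene passed an adjusted p of 0.05 in any comparison. The test was limma on log2(FPKM + 0.1) over 13978 genes, with the p-value adjusted by Benjamini-Hochberg over all of them. Against controls, 0 of 8 net genes tested were called in APC cKOs, where 0.0429% of all genes were called. In Bcat cOEs 0 of 8 were called against 0.0143% of all genes, and in APC/Bcat cKOs 0 of 8 against 0.207%. At an unadjusted p under 0.05, Bcan and Hapln4 passed in APC cKOs, where 10.0% of all genes did. At that level Bcan alone passed in Bcat cOEs, with 5.07% of all genes, and in APC/Bcat cKOs, with 14.2%. The median log2 difference of the 8 genes was 0.044 in APC cKOs, 0.018 in Bcat cOEs and -0.15 in APC/Bcat cKOs, and over all genes tested it was -0.0042, -0.0036 and 0.0031. A net gene could miss the threshold with a sizeable difference, and the intervals below give the sizes that these libraries allow.

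**Figure D2:**
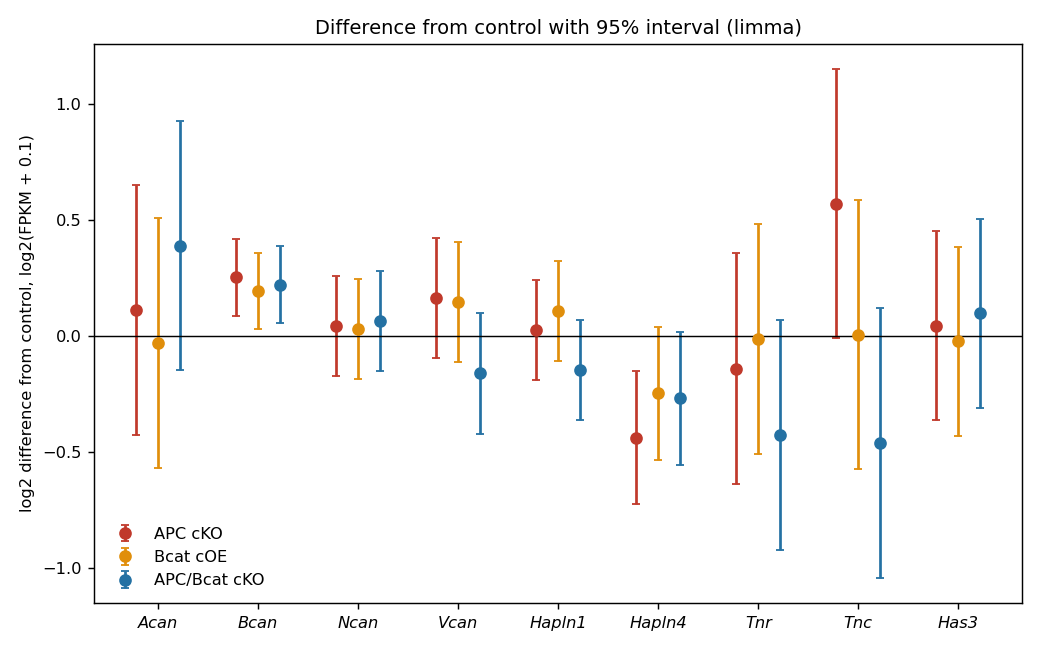
Log2 difference of each net gene from controls on the log2(FPKM + 0.1) scale (y axis), by gene (x axis) and mutant group (colour). Points are limma estimates and bars are 95% intervals. Bcan lies above 0 in all 3 mutant groups and Hapln4 below 0 in all 3, with intervals that exclude 0 for Bcan in each and for Hapln4 in APC cKOs before any adjustment, and Tnr, Tnc and Acan have the widest intervals.

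Among the lecticans, Bcan had higher group means in all 3 mutant groups than in controls, without passing the adjusted threshold. Its levels were 48.9, 51.4, 52.5 and 44.5 FPKM in the 4 control libraries and 64.0, 51.6, 61.6 and 58.1 in the APC cKO libraries. They were 60.5, 54.98, 52.0 and 58.1 FPKM in Bcat cOEs and 52.7, 63.2, 54.4 and 59.9 in APC/Bcat cKOs. All 4 APC/Bcat cKO libraries lay above the highest control, the lowest of them by little, while 1 APC cKO and 1 Bcat cOE library fell inside the control range. The log2 difference from controls was 0.25 (95% interval 0.087 to 0.42, adjusted p = 0.316) in APC cKOs. It was 0.19 (0.028 to 0.36, adjusted p = 0.946) in Bcat cOEs and 0.22 (0.056 to 0.39, adjusted p = 0.278) in APC/Bcat cKOs. The 3 differences share the same 4 control libraries, of which replicate 4 was the lowest of all 16. In exact two-sided permutation tests of 4 against 4, whose smallest possible p is 0.0286, the p was 0.0571, 0.0571 and 0.0286 in the same order. Between mutant groups Bcan differed little, with a log2 difference of 0.031 (95% interval -0.13 to 0.20) between APC cKOs and APC/Bcat cKOs. Brevican RNA is made by astrocytes and oligodendrocyte precursors as well as by neurons. The summed level of 7 astrocyte markers was 1015 to 1102 FPKM in controls, 1001 to 1137 in APC cKOs, 1034 to 1114 in Bcat cOEs and 949.6 to 1069 in APC/Bcat cKOs. That of 7 oligodendrocyte precursor markers was 43.8 to 50.5 FPKM in controls and 44.1 to 55.2 in the 3 mutant groups, and both sums overlapped between the mutant groups and controls. Gene by gene, 5, 6 and 5 of 7 astrocyte markers had a log2 difference above 0 in APC cKOs, Bcat cOEs and APC/Bcat cKOs, with 2, 1 and 0 higher and 0, 0 and 1 lower at an unadjusted p under 0.05. For the precursor markers it was 4, 5 and 6 of 7, with 1, 1 and 0 higher and 0 lower at such a p, and 0 markers of either list were called. Their part in the Bcan values was not tested.

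Ncan, the other abundant lectican, overlapped controls in every mutant group. It ranged from 27.02 to 36.4 FPKM in controls, 30.6 to 33.9 in APC cKOs, 27.4 to 35.7 in Bcat cOEs and 27.6 to 37.9 in APC/Bcat cKOs. Its log2 differences from controls were 0.044, 0.032 and 0.065, with 95% intervals that together reached from -0.18 to 0.28.

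Vcan, which in adult brain is made largely by the oligodendrocyte lineage, had group means above controls in the lines with raised β-cat and below controls in APC/Bcat cKOs. Its levels were 2.52, 2.62, 2.36 and 2.81 FPKM in controls, 3.34, 2.67, 2.61 and 3.01 in APC cKOs, 3.10, 3.29, 2.53 and 2.59 in Bcat cOEs and 2.75, 2.04, 2.36 and 2.06 in APC/Bcat cKOs. Every mutant group overlapped the controls, and the lowest 2 of all 16 libraries were APC/Bcat cKOs. The log2 difference from APC/Bcat cKOs was 0.33 (95% interval 0.068 to 0.59, adjusted p = 0.366) in APC cKOs and 0.31 (0.050 to 0.57, adjusted p = 0.340) in Bcat cOEs. Neither difference passed, and the exact permutation p was 0.0857 for both.

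Acan was low and variable. Its levels were 0.342, 0.383, 0.474 and 0.520 FPKM in controls, 0.724, 0.339, 0.405 and 0.468 in APC cKOs, 0.684, 0.468, 0.295 and 0.297 in Bcat cOEs and 0.472, 0.813, 0.502 and 0.613 in APC/Bcat cKOs. The highest APC cKO and Bcat cOE libraries lay more than 2-fold above the lowest of the same genotype, so single libraries spread more than the group means differed. The log2 difference from controls was 0.11 (95% interval -0.43 to 0.65) in APC cKOs, -0.030 (-0.57 to 0.51) in Bcat cOEs and 0.39 (-0.15 to 0.93) in APC/Bcat cKOs. The exact permutation p was 0.686, 0.971 and 0.143. In each mutant group the Bcan difference lay inside the interval for Acan, so a change of that size was not detectable for Acan at this spread.

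Brevican and neurocan made up nearly all lectican RNA. Bcan was 52.8% to 66.4% of the summed lectican FPKM of a library, Ncan 30.6% to 43.2%, Vcan 1.96% to 3.61% and Acan 0.336% to 0.782%. The sum itself was 81.4 to 86.3 FPKM in controls, 85.2 to 102 in APC cKOs, 86.2 to 99.98 in Bcat cOEs and 88.8 to 104 in APC/Bcat cKOs. The control libraries lay at the low end, and as the sum is mostly Bcan it adds no independent measure.

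Of the link proteins, Hapln4 had lower group means in all 3 mutant groups. Hapln4 is a brain link protein that pairs with brevican in the net. Its levels were 36.4, 37.8, 34.6 and 33.5 FPKM in controls and 22.9, 33.95, 22.4 and 27.03 in APC cKOs. They were 27.4, 31.8, 37.9 and 24.2 FPKM in Bcat cOEs and 33.3, 27.3, 30.2 and 27.5 in APC/Bcat cKOs. The controls were tight, 3 APC cKO libraries and all 4 APC/Bcat cKO libraries lay below them, and the Bcat cOE libraries ran from well below to the highest of all. The log2 difference from controls was -0.44 (95% interval -0.73 to -0.15, adjusted p = 0.316) in APC cKOs, -0.25 (-0.53 to 0.039, adjusted p = 0.946) in Bcat cOEs and -0.27 (-0.56 to 0.018, adjusted p = 0.378) in APC/Bcat cKOs. The exact permutation p was 0.0571, 0.171 and 0.0286. Without Bcat cOE replicate 4 the Bcat cOE value was -0.15.

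Bcan and Hapln4 were the 2 net genes of 8 tested whose groups did not overlap, both in APC/Bcat cKOs, where 5.21% of all genes did not overlap with controls. In APC cKOs 0 of 8 did not overlap, with 5.47% of all genes, and in Bcat cOEs 0 of 8, with 3.08%.

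Markers of parvalbumin interneurons, the cells that carry most cortical nets, had lower median sums in the same groups as Hapln4. The summed level of 10 such markers was 545 to 610 FPKM in controls, 418 to 508 in APC cKOs, 456 to 526 in Bcat cOEs and 486 to 569 in APC/Bcat cKOs. In APC/Bcat cKOs the sums overlapped controls. Cplx1, at a mean of 340 FPKM over all libraries, held most of this sum, against 51.8 for Pvalb. Of the 10 genes, 9 had a log2 difference below 0 in APC cKOs and 6 of these an unadjusted p under 0.05, with 0 called after adjustment. In Bcat cOEs 9 were below 0 and 4 had such a p, and in APC/Bcat cKOs 8 and 2. Pvalb itself, the calcium buffer that names these cells, was at 64.8 FPKM in controls, 38.2 in APC cKOs, 45.6 in Bcat cOEs and 58.5 in APC/Bcat cKOs (means of 4). Its log2 difference in APC cKOs was -0.81 (limma adjusted p = 0.209). Markers of excitatory neurons were also lower on balance, with 7 of 7 below 0 in APC cKOs and 6 of 7 in each of the other mutant groups, 2, 2 and 0 with an unadjusted p under 0.05, and 0 called. The part of these marker levels in the Hapln4 values was not tested.

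Hapln1, the link protein of aggrecan-rich nets, did not follow Hapln4. It ranged from 5.55 to 7.30 FPKM in controls, 5.78 to 7.11 in APC cKOs, 6.08 to 7.56 in Bcat cOEs and 5.25 to 6.45 in APC/Bcat cKOs. Its log2 difference from controls was 0.026, 0.11 and -0.15, and none passed. Single control libraries moved these small values by more than 1.5 times, to 0.045 in Bcat cOEs without control replicate 2 and to -0.079 in APC/Bcat cKOs without control replicate 4. The largest contrast was between Bcat cOEs and APC/Bcat cKOs at 0.25 (95% interval 0.039 to 0.47, adjusted p = 0.346). Hapln4 stood at 4.59 to 6.81 times Hapln1 in controls. The ratio was 3.35, 5.87, 3.58 and 3.80 in APC cKOs, where only replicate 2 lay inside the control range. In Bcat cOEs it was 4.24, 4.29, 5.01 and 3.98, where only replicate 3 did. In APC/Bcat cKOs it was 4.97 to 5.23, inside the control range.

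Each lectican gene lies beside a link protein gene in the mouse genome, an arrangement the choice of genes did not use. In the mm10 gene models of the expression table, Acan lies on the plus strand at chr7:79053483-79115099 and Hapln3 begins 1.93 kb further on, on the minus strand, at chr7:79117027-79131018, while the GENCODE model of Hapln3 reaches to 79115102, next to the end of Acan. Bcan is at chr3:87987531-88000356 with Hapln2 21.4 kb away at chr3:88021750-88027511, both on the minus strand. Ncan on the minus strand is at chr8:70093085-70120844, and Hapln4 on the plus strand lies 2.22 kb from it at chr8:70083529-70090862. Vcan on the minus strand is at chr13:89655310-89742512, and Hapln1 on the plus strand lies 43.5 kb away at chr13:89540636-89611832. Tnr, at chr1:159523769-159924922, Tnc, at chr4:63959785-64047015, and Has3, at chr8:106870242-106882902, lie elsewhere. Position did not bring like values in every pair. Over the 16 libraries, as a description, Pearson's r after removing the genotype means was 0.62 for Acan with Hapln3, 0.59 for Bcan with Hapln2 and 0.56 for Vcan with Hapln1, but -0.11 for Ncan with Hapln4. With the genotypes left in it was 0.33, 0.27, 0.70 and -0.17 in the same order.

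Tenascin-R RNA spread most in APC/Bcat cKOs. Tnr was at 18.0, 16.7, 14.2 and 16.8 FPKM in controls, 13.2, 17.7, 13.8 and 14.96 in APC cKOs, and 15.3, 18.6, 17.1 and 14.1 in Bcat cOEs. In APC/Bcat cKOs it was at 20.1, 10.6, 15.3 and 6.64 FPKM, which holds both the highest and the lowest of the 16 libraries and a 3.02-fold range. The log2 difference from controls in APC/Bcat cKOs was -0.43 (95% interval -0.92 to 0.071, adjusted p = 0.415). Single libraries decided its size, since it was -0.14 without APC/Bcat cKO replicate 4, the library with the most genes at 0, and -0.67 (adjusted p = 0.101) without APC/Bcat cKO replicate 1. In APC cKOs and Bcat cOEs the differences were -0.14 and -0.013. Tnr is made by the oligodendrocyte lineage and some interneurons. The 7 markers of mature oligodendrocytes summed to 745 to 1133 FPKM in controls and 963 to 1095 in APC/Bcat cKOs, where 7 of 7 had a log2 difference above 0, 4 with an unadjusted p under 0.05, and 0 were called. In APC cKOs they summed to 665 to 794 FPKM, with 7 of 7 below 0, 4 with such a p, and 0 called. Their part in the Tnr values was not tested.

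Tnc, which is abundant during development and low in adult cortex, gave the largest difference between mutant groups. Its levels were 0.533, 0.859, 0.648 and 0.745 FPKM in controls, 1.76, 0.788, 0.679 and 1.35 in APC cKOs, 0.918, 0.546, 0.635 and 0.704 in Bcat cOEs and 0.493, 0.686, 0.371 and 0.386 in APC/Bcat cKOs. APC cKO replicates 1 and 4 stood above every other library, while the other 2 APC cKOs lay among the controls. The log2 difference of APC cKOs from APC/Bcat cKOs was 1.03 (95% interval 0.45 to 1.61, adjusted p = 0.174, exact permutation p = 0.0571), the smallest adjusted p of any net gene in these comparisons. Against controls it was 0.57 (95% interval -0.010 to 1.15, adjusted p = 0.504) in APC cKOs, 0.0045 in Bcat cOEs and -0.46 (-1.04 to 0.12, adjusted p = 0.451) in APC/Bcat cKOs. Without APC cKO replicate 1 the APC cKO value against controls was 0.35, and without both female libraries 0.24. With a pseudocount of 1 in place of 0.1 the difference between APC cKOs and APC/Bcat cKOs was 0.51 and that between APC cKOs and controls 0.31. Tnc is also made by meningeal and reactive glial cells. The 5 meningeal markers summed to 19.4 to 26.6 FPKM in APC cKOs and 12.1 to 20.9 in APC/Bcat cKOs, with 3 of 5 at an unadjusted p under 0.05 between them and 0 called. Gfap, a marker of reactive astrocytes, was at 82.6 FPKM in APC cKOs and 47.3 in controls (log2 difference 0.73, limma adjusted p = 0.328). It was the highest of the 7 astrocyte markers there, whose median was 0.12, with 5 above 0 and 2 below. The highest astrocyte marker value against controls was 0.29 in Bcat cOEs and 0.29 in APC/Bcat cKOs. The part of these markers in the Tnc values was not tested.

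Has3, the one hyaluronan synthase among the net genes, ranged from 0.416 to 0.635 FPKM in controls and from 0.419 to 0.630 in the mutant groups. The log2 differences from controls were 0.045, -0.023 and 0.097, with 95% intervals from -0.43 to 0.51.

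Setting the mutant lines against each other gave 0 calls among the net genes in every case. Between APC cKOs and APC/Bcat cKOs 0 of 8 were called, with 0.215% of all genes, and Tnc and Vcan had an unadjusted p under 0.05, with 10.3% of all genes. Between Bcat cOEs and APC/Bcat cKOs 0 of 8 were called, with 0.229% of all genes, and Vcan and Hapln1 had such a p, with 11.9% of all genes. Between APC cKOs and Bcat cOEs 0 of 8 were called and 0 had an unadjusted p under 0.05, with 0.0429% and 7.57% of all genes. A last comparison set the 8 libraries with raised β-cat, APC cKOs and Bcat cOEs, against the other 8. Here 0 of 8 net genes were called, with 0.0572% of all genes. Tnc at a log2 difference of 0.52 (adjusted p = 0.440), Vcan at 0.24 (adjusted p = 0.431) and Hapln4 at -0.21 (adjusted p = 0.560) had an unadjusted p under 0.05, with 8.84% of all genes.

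The net genes did not vary together as one group. Among the 36 pairs, Pearson's r over the 16 libraries with genotype means removed was positive in 23 and negative in 13, above 0.5 in 6 and below -0.5 in 5. These values are descriptions, since all genes of a library share its depth, its tissue piece and its scaling. The lowest r was -0.72, for Bcan with Hapln4, and it was -0.82 with the genotypes left in. Bcan also ran opposite to Tnr (r = -0.63) and Has3 (r = -0.63), while Acan ran with Tnc (r = 0.65), Ncan (r = 0.64) and Bcan (r = 0.58). With the genotypes left in, r was 0.20 for Acan and Tnc, so that relation was seen only after the genotype means were removed. Without the 2 libraries farthest from the Acan median, a narrower range of Acan, that r of 0.20 became -0.093. Vcan, Hapln1, Tnr and Hapln4 were only partly linked. With genotype means removed, r was 0.56 for Vcan and Hapln1, 0.52 for Vcan and Tnr and 0.56 for Hapln4 and Tnr. It was 0.37 for Hapln1 and Tnr, 0.22 for Hapln1 and Hapln4 and 0.035 for Vcan and Hapln4.

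**Figure D3:**
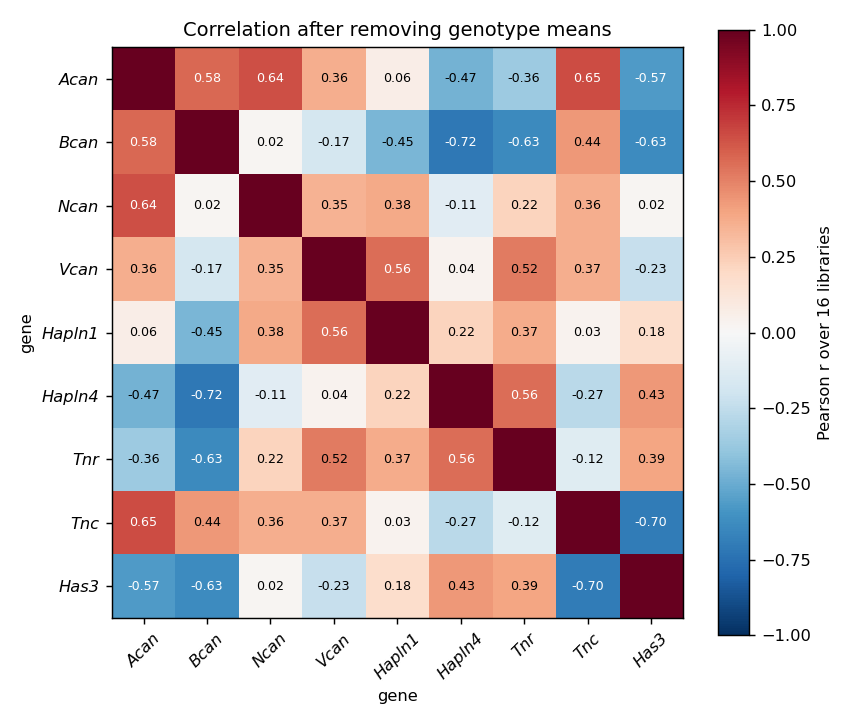
Pearson's r between each pair of net genes (both axes) over 16 libraries, on log2(FPKM + 0.1) after the mean of each genotype was removed, in colour and digits. The strongest negative value is -0.72 for Bcan with Hapln4 and the strongest positive value is 0.65 for Acan with Tnc.

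Acan was related to the other net genes and to Pvalb in 9 planned correlations over all 16 libraries, with 100000 permutations each and p-values not adjusted. The permutations moved libraries across genotypes, so these p-values mix differences between genotypes with variation inside them. With Ncan, Pearson's r was 0.63 (permutation p = 0.00949) and Spearman's rho 0.66 (permutation p = 0.00628). Without the 2 libraries farthest from the Acan median r was 0.45, and with genotype means removed 0.64. With Bcan r was 0.51 (permutation p = 0.0429) and rho 0.52 (permutation p = 0.0407). Here r was 0.25 without the 2 farthest libraries and 0.58 with genotype means removed. Leaving out libraries by their Acan value narrows the range of Acan, so the lower r does not show that the relation rests on them. With Tnr r was -0.50 (permutation p = 0.0440) and rho -0.47 (permutation p = 0.0699), and r was -0.39 without those 2. With Pvalb r was -0.28 (permutation p = 0.300) and rho -0.10 (permutation p = 0.713), and the other 5 net genes had a p above 0.1. The genes most like Acan over the libraries, among 12900 with a mean of at least 1 FPKM, were Tuba8 (r = 0.88), Selm (0.86), Slc9a3r2 (0.85), Tmem163 (0.85) and Tubb6 (0.85). Those most like Vcan were Odz3 (r = 0.86), Epha5 (0.85) and Phf10 (0.84). Acan, Has3 and Tnc, with means below 1 FPKM, could not be named in this ranking.

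The enzymes and receptors that build, cut and read the net gave 0 calls as well. Of 46 partner genes in 6 roles, all were found and 38 passed the minimum mean. Against controls 0 of 38 were called in each mutant group. At an unadjusted p under 0.05, 3 were higher and 2 lower in APC cKOs, 1 higher and 3 lower in Bcat cOEs, and 1 higher and 1 lower in APC/Bcat cKOs. Their median log2 difference was 0.045, 0.057 and 0.055. Of all genes tested, in both directions together, 10.0%, 5.07% and 14.2% had such a p.

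**Figure D4:**
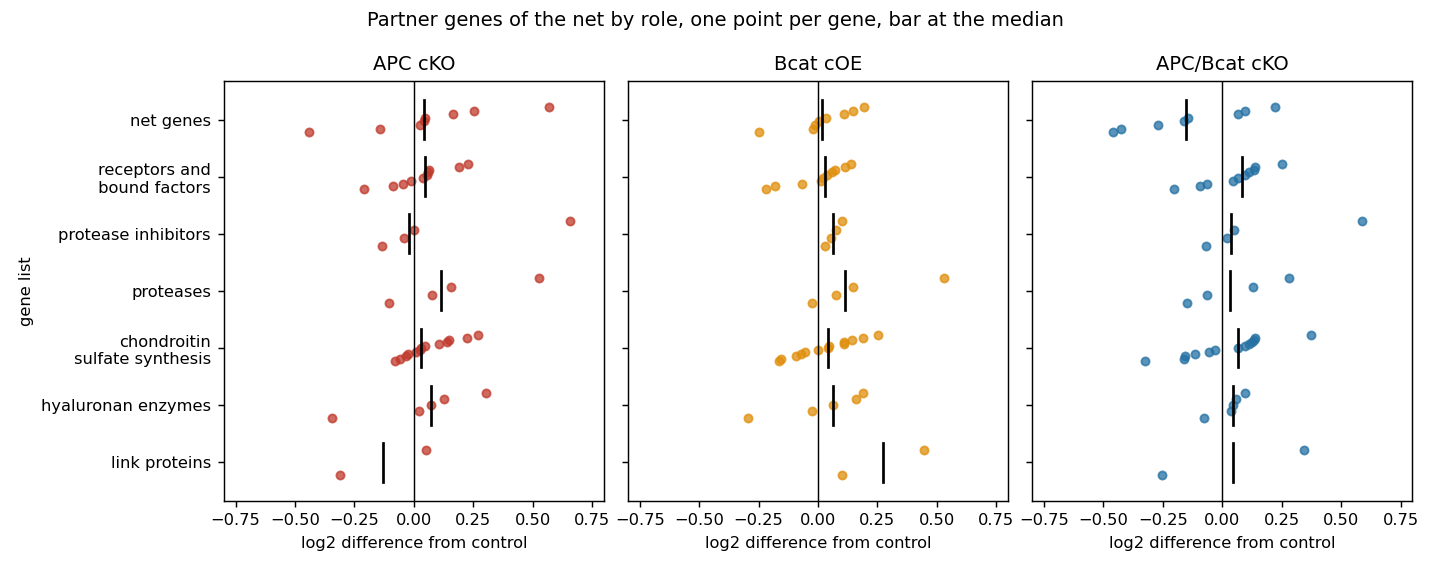
Log2 difference from controls (x axis) of the partner genes that passed the minimum mean, by role (y axis), in APC cKOs, Bcat cOEs and APC/Bcat cKOs (panels), with the 8 net genes tested in the top line. Each point is a gene and the black bar is the median of its list, and the lists lie around 0 in each panel with single genes, such as Timp1 at 0.66 in APC cKOs, apart from the rest.

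Of the link proteins outside the net list, Hapln2 was at a mean of 4.39 FPKM over the 16 libraries and Hapln3 was low at 0.785. Hapln2, which sits at nodes of Ranvier on myelinated axons, had a log2 difference of -0.31 (standard error 0.18, limma adjusted p = 0.586) in APC cKOs, 0.10 in Bcat cOEs and 0.34 (adjusted p = 0.403) in APC/Bcat cKOs, with the signs of the oligodendrocyte markers in APC cKOs and APC/Bcat cKOs. Hapln3 was at 0.720 FPKM in controls and 0.785, 1.03 and 0.605 in the mutant groups, with intervals that all included 0. Among hyaluronan enzymes, Tmem2, a cell-surface hyaluronidase, was at 0.31 in APC cKOs (adjusted p = 0.350). The hyaluronan-binding Cemip, listed as 9930013L23Rik, was at -0.34 in APC cKOs (adjusted p = 0.375) and -0.29 in Bcat cOEs (adjusted p = 0.946).

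Chondroitin sulfate synthesis genes gave 0 calls among 13 tested, with 1, 1 and 2 at an unadjusted p under 0.05. Their log2 differences ran from -0.077 to 0.27 in APC cKOs, -0.16 to 0.25 in Bcat cOEs and -0.32 to 0.37 in APC/Bcat cKOs. Chst11, a chondroitin 4-O-sulfotransferase, was at -0.024, -0.16 and -0.16. Chsy1, a chondroitin synthase, was at 0.22 in APC cKOs (adjusted p = 0.542) and 0.14 in APC/Bcat cKOs. Chst15, which adds a second sulfate, was at -0.16 in Bcat cOEs (adjusted p = 0.946), and Xylt1, which starts the chain, at -0.32 in APC/Bcat cKOs (adjusted p = 0.548).

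The proteases that cut lecticans were low. Adamts4, an aggrecanase, was at 2.35 FPKM in controls, with log2 differences of -0.10, 0.076 and 0.13. Mmp9, which is known to loosen nets, was below the minimum mean at 0.470 FPKM, with differences of 0.17, 0.12 and 0.069. Mmp2, named here after its values were seen, came nearest to the threshold among the partners. It was at 0.715 FPKM in controls, 1.08 in APC cKOs, 1.08 in Bcat cOEs and 0.638 in APC/Bcat cKOs (means of 4). Its log2 difference between the 8 libraries with raised β-cat and the other 8 was 0.60 (95% interval 0.35 to 0.86, limma adjusted p = 0.126) and those groups did not overlap. The share of all genes not overlapping between these 8 and 8 libraries was not computed. The Mmp2 difference did not pass, and Mmp2 is also a gene of meningeal and vascular cells. In the same comparison 5 of 5 meningeal markers had a log2 difference above 0, with a median of 0.23, 2 of them at an unadjusted p under 0.05 and 0 called. Of 6 endothelial markers 1 was above 0, with a median of -0.031, 0 at such a p and 0 called. Their part in the Mmp2 values was not tested.

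Receptors and bound factors gave 0 calls among 10 tested, with 1, 1 and 0 lower and 0 higher at an unadjusted p under 0.05. Ptprs, a receptor for chondroitin sulfate chains, was at 69.4 FPKM in controls, with log2 differences of 0.059, 0.073 and 0.066 and intervals within -0.096 to 0.23. Rtn4r, the Nogo receptor, was at -0.21 in APC cKOs (adjusted p = 0.417), and Nptx2, a synaptic pentraxin that gathers AMPA receptors at nets, was at 0.23 in APC cKOs (adjusted p = 0.585) and 0.25 in APC/Bcat cKOs (adjusted p = 0.400). Otx2, a homeoprotein that nets take up from outside the cell, was at 0.142 FPKM in controls, 0.514 in APC cKOs, 0.306 in Bcat cOEs and 0.111 in APC/Bcat cKOs, below the minimum mean. Its source in adult brain is the choroid plexus, whose 4 markers summed to 1.97 to 5.40 FPKM in controls, 1.81 to 8.26 in APC cKOs, 1.58 to 4.76 in Bcat cOEs and 1.43 to 5.53 in APC/Bcat cKOs. The part of such tissue in the Otx2 values was not tested.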

How the data were processed

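RNA from prefrontal cortex was sequenced by the authors from polyA-selected, strand-specific libraries. They mapped reads to mm10 with TopHat2 2.0.10 and made the expression values with Cufflinks and Cuffdiff 2.1.1. The deposited values carry no stated unit and were taken as log2(FPKM + 1) made by the authors, because the product of FPKM and transcript kilobases, added over genes, is then 1254522 to 1330678 in a library, and 11022536 to 12132974 under natural logs. They were turned back into FPKM. The confidence columns are empty, and 0 value columns were left unused.

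The 13978 genes whose mean reached 0.5 FPKM were fitted with limma 3.58.1 in R 4.3.3 (lmFit, contrasts.fit, eBayes with trend) on log2(FPKM + 0.1), all 16 libraries in one model. A fold change on this scale understates the change of low genes. A gene was called at a p under 0.05 after Benjamini-Hochberg adjustment. Permutation tests were exact and two-sided. The fit was tested on simulated data. The named genes are the net genes, Apc, Ctnnb1, partner genes fixed by role with the largest rise and fall per role at a mean of at least 1 FPKM, and the genes most correlated with Acan and Vcan. The genes and lists were chosen with earlier results of these data known. The labels do not say that libraries are separate mice beyond their numbers, so p-values measure the spread between libraries. Strand was kept in library preparation, but its use in counting is not given in the sources used here. The alternatives were another pseudocount, other minimum means, quantile and median-of-ratios scaling, no trend, sex, a block, only the groups compared, and each library left out.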

Additional observations from a re-analysis of the deposited data

How the results depend on the processing

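No net gene was called with limma in any of the 7 comparisons under any of the 28 alternatives, including an adjusted p under 0.1, and the smallest adjusted p of a net gene was 0.101. Net genes with an unadjusted p under 0.05 numbered 2 to 3 in APC cKOs, 0 to 2 in Bcat cOEs and 1 to 3 in APC/Bcat cKOs against controls, and 0 to 5 in the other comparisons. The shares of all genes with such a p under the alternatives are not given here. Whether these counts are unusual therefore cannot be told. Of 957 values of single net genes under the alternatives, 923 kept their sign and side of the threshold and 34 changed sign, all of them in 10 differences whose reported size was at most 0.11. With quantile normalization the log2 difference from controls was -0.019 for Acan and -0.054 for Has3 in APC cKOs, and -0.052 for Tnc in Bcat cOEs. Without the female libraries it was -0.15 for Acan and -0.0023 for Ncan in APC cKOs, and 0.034 for Tnr, -0.10 for Tnc and 0.073 for Has3 in Bcat cOEs. With sex as a covariate Acan was at 0.018 in Bcat cOEs. With each library left out in turn, values in APC cKOs ranged from -0.067 to 0.24 for Acan, -0.021 to 0.12 for Ncan, -0.037 to 0.092 for Hapln1 and -0.032 to 0.14 for Has3. In Bcat cOEs they ranged from -0.23 to 0.097 for Acan, -0.032 to 0.11 for Ncan, -0.082 to 0.052 for Tnr, -0.12 to 0.10 for Tnc and -0.097 to 0.073 for Has3, and in APC/Bcat cKOs from -0.012 to 0.14 for Ncan. The cause of these changes was not tested.

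Libraries with the same number in their titles varied together between APC cKOs and Bcat cOEs, where all 3 pairs had a correlation of deviations over 0.1 (0.32, 0.20 and 0.11), and not in the other pairs of groups, where 1 of 18 did. With that number as a replicate block 0 net genes were called in any comparison. Between APC cKOs and Bcat cOEs 0 had an unadjusted p under 0.05 with the block or without it. Hapln1 in APC cKOs was at -0.0076 with this block. Title number 5 occurs only in APC cKO replicate 4, so that library had no part in the APC cKO values of this block. A block from the table's column numbers, chosen after seeing the data, also gave 0 calls and left Hapln1 in APC cKOs at 0.026. With a mean of at least 2 FPKM there was no value for Acan, Tnc or Has3, and the comparison of 8 with 8 libraries already used all groups. With a pseudocount of 1 the Tnc differences shrank by more than 1.5 times, to 0.51 between APC cKOs and APC/Bcat cKOs, 0.31 in APC cKOs and -0.19 in APC/Bcat cKOs against controls, and 0.25 between 8 and 8 libraries, and no call changed. Depth is unknown, which limits what can be said of Acan, Has3 and Tnc most.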

Other observations

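The relation of Hapln4 with Pvalb was chosen after the values were seen and is given as values. Hapln4 ran with Pvalb over the 16 libraries, with Pearson's r = 0.74 and Spearman's rho = 0.71. Without the 2 libraries farthest from the Hapln4 median r was 0.62, and with genotype means removed 0.64. In the planned relation of Acan with Pvalb, Acan ran against Pvalb most once genotype means were removed, at r = -0.63, against -0.28 with them left in. Without the 2 libraries farthest from the Acan median, a narrower range of Acan, that r of -0.28 became -0.044.

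None of the 36 sets of 4 libraries, 9 net genes in 4 genotypes, held a library past Dixon's 95% critical value for 4 values, and chance would give about 1.8. The highest ratio was 0.665, for Acan in APC cKOs.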
